A study of Mus musculus with 28 samples.

Results

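*Dusp4*, *Dusp5*, *Dusp6*, *Spry1*, *Spry2*, *Spry4*, *Spred1*, *Etv1*, *Etv4* and *Etv5* are mouse genes whose transcription follows the activity of the MAP kinase ERK. They were taken by name, 10 of the 28244 genes counted, and were measured by RNA-seq of polyadenylated RNA in all 28 samples. The choice rested in part on these data, because *Dusp4* was higher in every group of peripheral neural stem cells than in brain neural stem cells. The fold changes of *Dusp4* are therefore given as a description without a test, and tests and counts are given for the other 9 genes, all of which passed the filter on low counts in every comparison.

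Growth factors such as EGF and FGF switch on receptor tyrosine kinases, which pass the signal through RAS, RAF and MEK to ERK. ERK in turn raises the transcription of its own brakes. The DUSP phosphatases remove the activating phosphates from MAP kinases, the Sprouty and Spred proteins hold back the signal between receptor and RAF, and the ETS factors Etv1, Etv4 and Etv5 (the PEA3 group) carry much of the FGF response to target genes. Messenger levels of these genes are widely read as an index of FGF and ERK signalling, and neural stem cells are grown in medium that contains both ligands.

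The study derived peripheral neural stem cells (pNSCs) from tissue outside the central nervous system and compared them with brain neural stem cells (brain NSCs), with cells of the tissue of origin and with neural crest stem cells (NCSCs). All samples carry the strain label C57BL/6, although the methods describe transgenic mice that were bred with other strains. A first experiment held Tail-pNSC, Lung-pNSC, Brain-NSC, Tail and Lung samples (2 each). The study describes its pNSCs as derived from mice carrying Nes-GFP, a reporter under regulatory elements of Nestin. The labels name no reporter line for any of these groups. The pNSCs of this experiment came from postnatal tail and adult lung. A second experiment held Wnt1Cre-mTmG Tail pNSCs, Wnt1Cre-mTmG DRG pNSCs, Wnt1Cre-mTmG brain NSCs and DRG NCSCs (3 each; DRG, dorsal root ganglion). In Wnt1Cre-mTmG mice, Wnt1-Cre turns descendants of the neural crest from Tomato to GFP, and the pNSCs were Tomato+ and GFP- and came from postnatal tail and DRG. The study describes its DRG NCSCs as derived from adult wild-type mice, so that genotype and donor age differ along with cell type in each comparison with them. The last experiment held Sox2-GFP lung pNSCs from postnatal lung and Sox2-GFP brain NSCs (3 each), from mice with a GFP reporter knocked into *Sox2*, and was compared with the same 2 Lung samples. Experiment therefore differs along with cell type in the comparison with Lung, and mouse line and donor age may differ too. Postnatal mice were 1 to 5 days and adult mice 4 to 6 weeks old. The age of the donors of each brain NSC line and of the Tail and Lung cells is not given in the sources used here. pNSC clusters were picked by hand, often as single clones, after about 3 weeks in medium with 10 ng/mL EGF and 10 ng/mL bFGF, so that the samples of a group can be one line. Nothing in the labels ties replicates to separate animals or cultures, and p-values measure only the spread between these samples, which may be technical. The medium of the DRG NCSCs and of the Tail and Lung cells at the time of RNA extraction is not given in the sources used here.

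Library totals ranged from 9808246 to 22637031 counts and were at most 11431445 in the Wnt1Cre-mTmG brain NSCs and DRG pNSCs. In the same experiment the Tail pNSCs and DRG NCSCs had 17051461 to 22548268 counts. Depth therefore differs along with cell type where either was compared with those brain NSCs or DRG pNSCs. DRG NCSC replicate 3 stood apart from the other 2 DRG NCSC samples, with a variance 16.8 and 21.0 times that of counting error. All other replicate pairs had 1.09 to 2.82 times. The comparisons, counts and correlations that rest on DRG NCSC replicate 3 are also described without it. All 6 markers of neural stem cells that were examined (*Sox2*, *Nes*, *Olig2*, *Pax6*, *Sox1* and *Fabp7*) were above 1 cpm (counts scaled to library size, with library sizes adjusted by TMM over all samples) in each of the 8 NSC and pNSC groups, with a summed level of 4316 to 6361 cpm. The sum was 86.4 to 89.3 cpm in Tail and 285 to 308 cpm in Lung cells. In the DRG NCSCs it was 1454 to 1841 cpm, and 4 of these 6 markers were above 1 cpm. The 3 neural crest markers reported here (*Sox10*, *Ngfr* and *Foxd3*) summed to 2276 to 2489 cpm in the DRG NCSCs and to 0.290 to 15.9 cpm in the NSC and pNSC groups. The 4 leukocyte markers summed to 557 to 565 cpm in Lung cells and to at most 0.323 cpm in the NSC and pNSC groups. The 4 lung epithelial markers summed to 24644 to 25142 cpm in Lung cells, and none of the 4 was detected in Lung-pNSC. In the DRG NCSCs the fibroblast markers summed to 2805 to 3460 cpm, the leukocyte markers to 53.8 to 59.5 cpm and the endothelial markers to 24.4 to 29.7 cpm. In samples that hold markers of several cell types, such as the Tail and Lung cells and the DRG NCSCs, fewer cells of a type and less RNA per cell cannot be told apart.

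The DNA just before the transcription start is shown for 3 of the genes, as 300 bases of RefSeq sequence on GRCm38.p6 (250 before and 50 after the start), because their levels are set against each other below. *Dusp5* was the member that was lower in pNSCs than in tissue cells and NCSCs, and *Spry2* is one of the Sprouty genes. *Dusp6* had the highest group mean of any member, 592 cpm in Lung-pNSC, though not the highest level in every group. Capitals mark CArG boxes, the sites of serum response factor, in *Dusp5* and the ETS site CCGGAA in *Spry2*. Shorter or other forms of the ETS site were not searched and are not marked. The *Dusp5* window is chr19:53528895-53529194 on the plus strand, the *Spry2* window chr14:105896770-105897069 on the minus strand and the *Dusp6* window chr10:99262981-99263280 on the plus strand.
*Dusp5*: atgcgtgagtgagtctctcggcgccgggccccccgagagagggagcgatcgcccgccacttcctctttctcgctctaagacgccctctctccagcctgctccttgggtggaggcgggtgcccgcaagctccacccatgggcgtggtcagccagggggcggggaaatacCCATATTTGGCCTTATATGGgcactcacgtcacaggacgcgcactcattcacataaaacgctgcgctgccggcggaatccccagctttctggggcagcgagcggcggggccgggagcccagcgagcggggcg
*Spry2*: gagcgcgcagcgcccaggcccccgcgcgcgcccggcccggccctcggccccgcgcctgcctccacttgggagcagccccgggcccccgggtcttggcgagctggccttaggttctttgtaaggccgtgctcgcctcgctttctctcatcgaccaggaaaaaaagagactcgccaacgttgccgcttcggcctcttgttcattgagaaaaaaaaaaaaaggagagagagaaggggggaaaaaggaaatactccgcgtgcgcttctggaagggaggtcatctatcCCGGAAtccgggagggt
*Dusp6*: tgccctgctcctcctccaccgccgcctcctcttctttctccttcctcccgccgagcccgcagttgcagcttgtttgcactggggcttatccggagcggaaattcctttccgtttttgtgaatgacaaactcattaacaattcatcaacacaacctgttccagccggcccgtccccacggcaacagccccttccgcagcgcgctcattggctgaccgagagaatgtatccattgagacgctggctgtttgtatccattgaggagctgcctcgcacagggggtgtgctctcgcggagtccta

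The promoter table held 9 windows for 7 of the genes (*Dusp5*, *Dusp6*, *Etv1*, *Etv5*, *Spred1*, *Spry1* and *Spry2*). The motifs searched, on both strands, were the ETS site CCGGAA, the AP-1 site TGANTCA and the CArG box, which was added after the *Dusp5* window had been read. The *Dusp5* window held 2 CArG boxes side by side, starting at -82 and -72 from the transcription start. A CArG box was present in 1.63% of all 32851 windows of this length, and 2 or more in 6 windows (0.0183%). CCGGAA was present in 1 of the 9 member windows, that of *Spry2*, against 14.9% of all windows, and TGANTCA in none of the 9 against 7.81% of all windows. A match is a description of these letters and not a binding site.

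The genes lie on separate chromosomes, each of them protein coding. By the GENCODE M21 annotation of GRCm38, *Dusp4* spans chr8:34807297-34819894, *Dusp5* chr19:53529109-53542431, *Dusp6* chr10:99263231-99267489, *Spry1* chr3:37639947-37644598, *Spry2* chr14:105891947-105896819, *Spry4* chr18:38586247-38601415, *Spred1* chr2:117121374-117182279, *Etv1* chr12:38779380-38870484, *Etv4* chr11:101769742-101785371 and *Etv5* chr16:22381309-22439719. *Dusp5*, *Spry1* and *Spry4* overlap genes annotated on the opposite strand, and whether the counting used strand is not given in the sources used here, so reads of each pair cannot be told apart.

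*Dusp4* encodes a nuclear phosphatase of ERK, JNK and p38. Its level, in cpm scaled over all 28 samples, was 7.12 and 7.11 in the Brain-NSC samples, 7.84, 8.68 and 8.09 in Wnt1Cre-mTmG brain NSCs and 4.03, 4.40 and 4.41 in Sox2-GFP brain NSCs. It was 24.3 and 26.0 in Tail-pNSC, 44.8 and 42.0 in Lung-pNSC, 34.1, 36.3 and 35.7 in Wnt1Cre-mTmG Tail pNSCs, 66.5, 70.7 and 69.2 in Wnt1Cre-mTmG DRG pNSCs and 38.3, 36.5 and 40.2 in Sox2-GFP lung pNSCs. The lowest of the 13 pNSC samples was thus above the highest of the 8 brain NSC samples, which is what the genes were in part chosen for. The log2 fold changes over the brain NSCs of the same experiment were 1.79 ± 0.11 (SE), 2.59 ± 0.10, 2.09 ± 0.08, 3.07 ± 0.08 and 3.18 ± 0.08 in that order. *Dusp4* was not a mark of the pNSCs against other cells, however. DRG NCSCs held 76.3, 84.1 and 73.7 cpm, more than any pNSC sample, Lung cells 23.9 and 24.0 cpm and Tail cells 20.6 and 17.1 cpm. The order of the group means ran from DRG NCSCs (78.0) through DRG pNSCs (68.8), Lung-pNSC (43.4), Sox2-GFP lung pNSCs (38.3), Wnt1Cre-mTmG Tail pNSCs (35.4), Tail-pNSC (25.1), Lung (24.0), Tail (18.9), Wnt1Cre-mTmG brain NSCs (8.21) and Brain-NSC (7.11) to Sox2-GFP brain NSCs (4.28). No 2 neighbours in this order had overlapping samples, but Wnt1Cre-mTmG Tail pNSCs and Sox2-GFP lung pNSCs (up to 36.3 and from 36.5), and Lung and Tail-pNSC (up to 24.0 and from 24.3), were nearly level. Overlap of neighbours was not counted over all genes.

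How far *Dusp4* resembled the other 9 genes depended on the groups considered. Over the 11 group means of log2(cpm + 0.5), its Pearson r with them lay between -0.08 (*Etv1*) and 0.38 (*Dusp6*). Over the 8 NSC and pNSC groups alone it was higher for most, at 0.79 with *Spred1*, 0.67 with *Etv5*, 0.64 with *Spry1*, 0.63 with *Dusp6* and 0.60 with *Spry4*, and lowest at -0.19 with *Etv1*. The difference of *Dusp4* between pNSCs and brain NSCs, for which the genes were in part chosen, enters these values. Over all 11 groups the 5 genes most like it among the 17392 others that passed the filter were *Prkg1* (a cGMP-dependent kinase, r = 0.79), *Frmd4a* (0.75), *Socs5* (a suppressor of cytokine signalling, 0.74), *3110083C13Rik* (0.73) and *Slc11a2* (an iron transporter, 0.73). *Prkg1*, the closest, was at 73.9 cpm in DRG NCSCs, 53.1 in Lung-pNSC and 4.63 in Wnt1Cre-mTmG brain NSCs, but at 12.2 in Sox2-GFP lung pNSCs, where *Dusp4* was high. Without DRG NCSC replicate 3 *Prkg1* was again the closest (0.79), and *Dclre1a* (0.74) took the place of *3110083C13Rik* (0.72) among the first 5. The group means share libraries and scaling, and these correlations are given as a description.

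**Figure D1:**
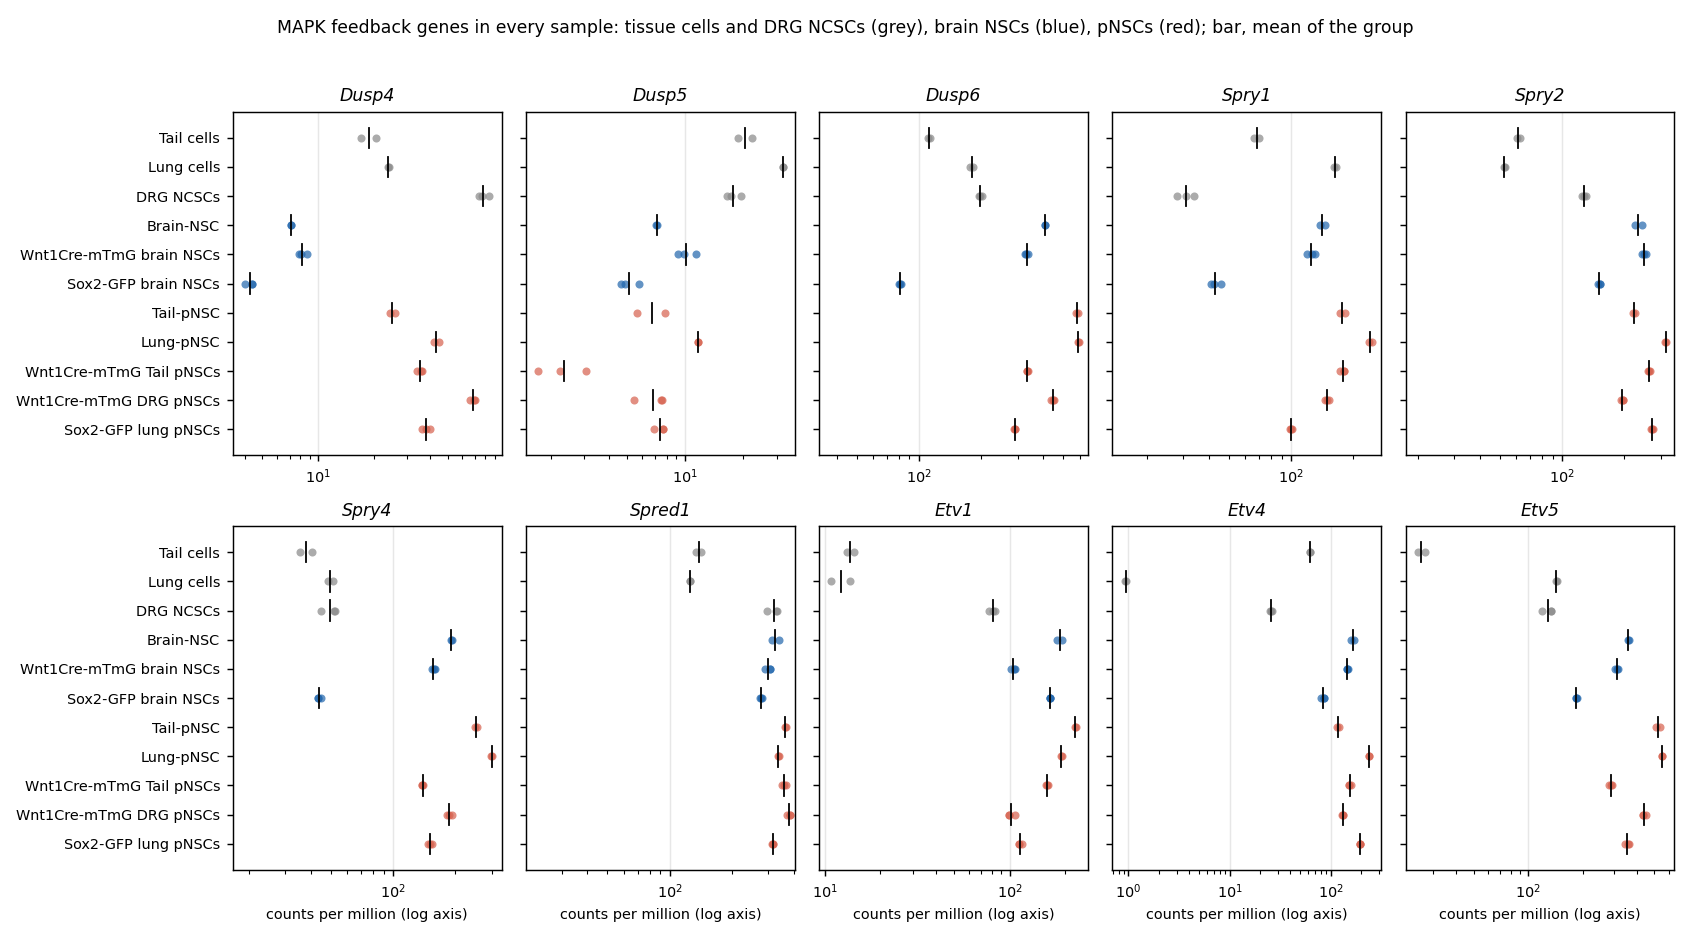
Level of each of the 10 genes in cpm (log axis) in every sample of the 11 groups, with tissue cells and DRG NCSCs in grey, brain NSCs in blue and pNSCs in red. Points are samples and the vertical bar is the mean of the group. For *Dusp4* the 13 pNSC samples lie to the right of the 8 brain NSC samples, and for *Dusp5* they lie to the left of all 7 samples of tissue cells and DRG NCSCs.

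Per kilobase of annotated exon, *Dusp6*, the cytoplasmic phosphatase specific for ERK, was the most abundant member in Tail-pNSC, Lung-pNSC, Wnt1Cre-mTmG DRG pNSCs and Brain-NSC (185, 189, 142 and 130 cpm per kb). *Spry2* was the most abundant in Sox2-GFP lung pNSCs (130), Wnt1Cre-mTmG Tail pNSCs (126) and both other brain NSC groups (120 and 72.7). *Dusp4* and *Dusp5* were the least abundant phosphatases, at 9.17 to 25.1 and 0.944 to 4.70 cpm per kb in the pNSCs. The genes differed in how widely they ranged over the 11 groups. The highest group mean was 3.00 times the lowest for *Spred1*, between 6.04 and 7.90 times for *Dusp6*, *Spry1*, *Spry2* and *Spry4*, 13.7 times for *Dusp5*, 18.2 times for *Dusp4*, 18.5 times for *Etv1*, 21.4 times for *Etv5* and 257 times for *Etv4*. Of the 100 neighbouring pairs of groups in the 10 orders, 19 had overlapping samples, 5 of them for *Dusp5* and 4 for *Spred1*. The same count was not made over all genes, so these numbers only describe the 10 genes.

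The first comparison asked how far the feedback genes of pNSCs differ from those of brain NSCs grown with the same 2 ligands. In the Nes-GFP and Wnt1Cre-mTmG experiments the differences other than that of *Dusp4* were under 2-fold, except for *Dusp5* in 1 comparison. With a call defined as an adjusted p below 0.05 in edgeR's quasi-likelihood test and a change of at least 2-fold, 0 of the 9 genes were called in Tail-pNSC against Brain-NSC, 0 in Lung-pNSC against Brain-NSC and 0 in Wnt1Cre-mTmG DRG pNSCs against Wnt1Cre-mTmG brain NSCs. DESeq2 and limma also called 0 in each of these, and 8, 7 and 8 of the 9 were at an unadjusted p under 0.05. In Wnt1Cre-mTmG Tail pNSCs 1 was called, *Dusp5*, which fell. Of all genes tested, 4.31% were called higher and 6.59% lower in Tail-pNSC, 4.56% and 4.15% in Lung-pNSC, 3.12% and 6.41% in DRG pNSCs and 9.16% and 9.05% in Wnt1Cre-mTmG Tail pNSCs. These replicates were close, and many smaller differences passed the adjusted p without the limit of 2-fold. It was passed by 8 of the 9 genes in Tail-pNSC (6 higher), 7 in Lung-pNSC (7 higher), 8 in DRG pNSCs (5 higher) and 6 in Wnt1Cre-mTmG Tail pNSCs (3 higher), against 49.1%, 40.3%, 45.9% and 65.5% of all genes. The median log2 fold change of the 9 genes was 0.26, 0.51, 0.25 and 0.06, where that of all genes tested was 0, 0, 0.01 and 0.00.

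*Dusp6* was at 407 and 408 cpm in the Brain-NSC samples, at 573 and 589 in Tail-pNSC and at 588 and 595 in Lung-pNSC. The groups did not overlap, and the log2 fold changes were 0.49 ± 0.03 and 0.51 ± 0.03 (SE). In the Wnt1Cre-mTmG experiment *Dusp6* was at 338, 326 and 332 cpm in brain NSCs and at 453, 444 and 438 in DRG pNSCs, a log2 fold change of 0.42 ± 0.03, while the Tail pNSCs, at 332, 334 and 337 cpm, overlapped with the brain NSCs (adjusted p = 0.93 by edgeR).

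The Sprouty genes, whose products bind adaptors downstream of receptors, differed by at most 0.75 on the log2 scale in these 4 comparisons. *Spry4* had 190 and 193 cpm in Brain-NSC, 250 and 256 in Tail-pNSC and 299 and 302 in Lung-pNSC. Its log2 fold changes were 0.37 ± 0.03 and 0.62 ± 0.03. In the Wnt1Cre-mTmG experiment it was higher in DRG pNSCs (0.25 ± 0.05) and lower in Tail pNSCs (-0.19 ± 0.04). *Spry1* was higher in all 4 pNSC groups, by 0.25 (DRG pNSCs) to 0.75 (Lung-pNSC) on the log2 scale, with 138 and 145 cpm in Brain-NSC and 239 and 245 in Lung-pNSC. *Spry2* was lower in Tail-pNSC (-0.10 ± 0.03) and DRG pNSCs (-0.35 ± 0.04), higher in Lung-pNSC (0.42 ± 0.03), and had a log2 fold change of 0.06 ± 0.03 in Wnt1Cre-mTmG Tail pNSCs (adjusted p = 0.137 by edgeR). *Spred1*, a membrane-bound inhibitor of RAS signalling, stayed within 0.02 and 0.33 on the log2 scale in the 4 comparisons.

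The 3 ETS genes did not move as one. *Etv5* had 360 and 358 cpm in Brain-NSC, 511 and 537 in Tail-pNSC and 548 and 552 in Lung-pNSC, log2 fold changes of 0.52 ± 0.03 and 0.59 ± 0.03. It was higher in DRG pNSCs (0.50 ± 0.04) and lower in Wnt1Cre-mTmG Tail pNSCs (-0.13 ± 0.04). *Etv4*, at 159 and 172 cpm in Brain-NSC, was lower in Tail-pNSC (115 and 120 cpm, -0.51 ± 0.04) and higher in Lung-pNSC (240 and 240 cpm, 0.51 ± 0.04). These comparisons share the Brain-NSC samples. *Etv1* was higher in Tail-pNSC (0.26 ± 0.04) and in Wnt1Cre-mTmG Tail pNSCs (0.59 ± 0.04). In Lung-pNSC and DRG pNSCs its samples overlapped with those of brain NSCs.

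*Dusp5* encodes a nuclear phosphatase specific for ERK, and per kilobase it was the scarcest of the 10 genes in each pNSC group, while *Dusp4* was the scarcest in each brain NSC group. In Wnt1Cre-mTmG brain NSCs it was at 9.18, 9.84 and 11.4 cpm, and in the Tail pNSCs at 1.73, 2.23 and 3.05 cpm, from 39, 48 and 60 counts. The log2 fold change was -2.15 ± 0.18, with an adjusted p of 1.09e-08 by edgeR. In Tail-pNSC of the Nes-GFP experiment it was at 5.62 and 7.84 cpm, which spanned the 7.07 and 7.16 cpm of Brain-NSC (-0.09 ± 0.15, adjusted p = 0.665 by edgeR). The difference between both tail effects was itself tested in 1 fit over all samples. It came to 2.06 ± 0.24 on the log2 scale (adjusted p = 1.8e-09 by edgeR), and 1 of the 9 genes passed that test with a difference of at least 1, against 16.0% of all genes. DRG pNSCs, at 5.41, 7.55 and 7.47 cpm, were below the brain NSCs (-0.59 ± 0.17), and Lung-pNSC, at 11.7 and 11.6 cpm, above them (0.68 ± 0.13). The Wnt1Cre-mTmG Tail pNSCs, unlike the other pNSCs, also held fibroblast markers at a summed 375 to 388 cpm, against 1.33 to 17.0 cpm in the other 4 pNSC groups, and the part of this in the *Dusp5* value was not tested.

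In the Sox2-GFP experiment 4 genes passed the limit of 2-fold. Against Sox2-GFP brain NSCs, 4 of the 9 genes were called higher in Sox2-GFP lung pNSCs (*Dusp6*, *Spry1*, *Spry4* and *Etv4*) and 0 lower, where 5.76% of all genes were called higher and 9.99% lower. Without the limit of 2-fold, 9 passed (8 higher) against 65.5% of all genes. The median log2 fold change of the 9 genes was 0.96 against 0 over all genes.

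*Dusp6* was at 80.6, 80.1 and 82.2 cpm in Sox2-GFP brain NSCs and at 293, 290 and 288 in lung pNSCs, a log2 fold change of 1.87 ± 0.03. *Spry4* went from 44.7, 43.2 and 43.3 cpm to 154, 151 and 148 (1.81 ± 0.03), and *Spry1* from 45.7, 42.4 and 40.9 cpm to 101, 98.8 and 100.2 (1.24 ± 0.04). *Etv4* went from 85.4, 85.8 and 80.9 cpm to 194, 195 and 197 (1.24 ± 0.03). For these 4 genes the samples of both groups were far apart. Just outside the limit of 2-fold were *Etv5* (0.96 ± 0.02, from 185 to 354 cpm) and *Spry2* (0.87 ± 0.02). *Dusp5* was higher by 0.54 ± 0.11 and *Spred1* by 0.21 ± 0.02, and *Etv1* was the one gene that was lower (-0.51 ± 0.03).

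The Sox2-GFP brain NSCs held less of most of the 9 genes than the other brain NSCs. For 8 of the 9, *Etv1* being the exception, all 3 Sox2-GFP brain NSC samples were below the 5 other brain NSC samples, as they were for 21.4% of the genes that passed the filter. *Dusp6* was 5.03 times as high in Brain-NSC and 4.10 times as high in Wnt1Cre-mTmG brain NSCs as in Sox2-GFP brain NSCs. *Spry4* was 4.38 and 3.59 times and *Spry1* 3.30 and 2.92 times as high. The factors were 1.97 and 1.74 for *Etv4* and 1.95 and 1.68 for *Etv5*. The Sox2-GFP lung pNSCs had no common place among the pNSC groups. Their level of *Dusp6* was below that of each other pNSC group (288 to 293 cpm against 332 to 595), and so was that of *Spry1* (98.8 to 101 cpm against 146 to 245). Their mean of *Spry4*, 151 cpm, was above that of the Wnt1Cre-mTmG Tail pNSCs (139 cpm) and below the other 3. *Etv4*, at a mean of 195 cpm, and *Spry2*, at 272 cpm, were second to Lung-pNSC (240 and 318 cpm). Mouse line, age, line of cells and experiment cannot be told apart in this contrast between brain NSC lines, and it was not tested.

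Oligodendrocyte lineage markers also differed between the brain NSC lines. The 4 that were examined summed to 313 to 318 cpm in Sox2-GFP brain NSCs, against 103 to 138 cpm in the other brain NSCs, with *Pdgfra* at 97.1 against 8.54 and 22.4 cpm. The sum was higher still, 396 to 401 cpm, in Sox2-GFP lung pNSCs, where *Cspg4* made up 377 cpm of it. Of the 4, only 2 (*Cspg4* and *Pdgfra*) had a mean above 1 cpm in the NSC and pNSC groups. These are not confined to this lineage, as the sum was 613 cpm in Tail and 501 to 502 cpm in Lung cells. The part of these markers in the levels of the feedback genes was not tested.

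The lung effect was tested between both experiments in the same fit. It was smaller in the Nes-GFP than in the Sox2-GFP experiment for *Dusp6*, by -1.35 ± 0.05 on the log2 scale (adjusted p = 2.88e-24 by edgeR), and for *Spry4*, by -1.18 ± 0.06 (2.09e-18). These 2 of the 9 genes passed with a difference of at least 1, against 14.1% of all genes. *Etv4* (-0.72 ± 0.05), *Spry1* (-0.49 ± 0.07), *Spry2* (-0.44 ± 0.05) and *Etv5* (-0.37 ± 0.05) differed in the same direction by less, and *Etv1* differed the other way (0.53 ± 0.06).

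**Figure D2:**
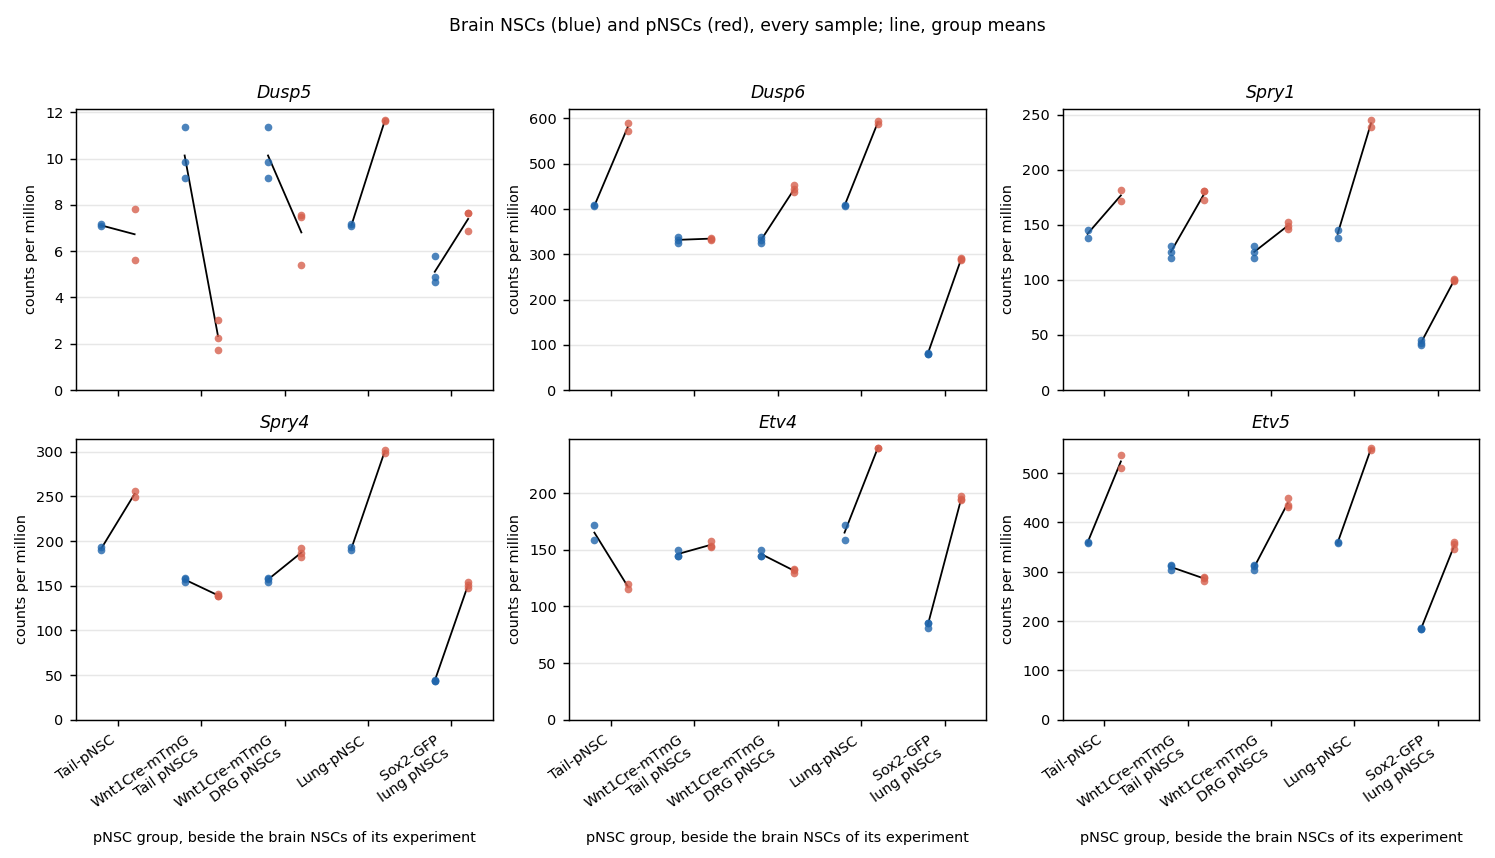
Level of 6 of the genes in cpm (linear axis from 0) in every brain NSC sample (blue) and pNSC sample (red) of the 5 comparisons, with a line between the group means. The 2 Brain-NSC samples and the 3 Wnt1Cre-mTmG brain NSC samples each appear in 2 comparisons. *Dusp6*, *Spry1* and *Spry4* start from their lowest brain NSC level in the Sox2-GFP experiment, and *Dusp5* drops in the Wnt1Cre-mTmG Tail pNSCs.

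The DRG NCSC samples held less of most of the feedback genes than brain NSCs. They also held fibroblast markers at a summed 2805 to 3460 cpm, against 10.3 to 11.9 cpm in Wnt1Cre-mTmG brain NSCs. The part of other cell types in the comparisons with DRG NCSCs was not tested. In DRG NCSCs against Wnt1Cre-mTmG brain NSCs, 4 of the 9 genes were called lower (*Spry1*, *Spry4*, *Etv4* and *Etv5*) and 0 higher, where 14.8% of all genes were called lower and 22.1% higher. Without the limit of 2-fold 8 passed (7 lower) against 81.7% of all genes, and the median log2 fold change was -0.97 against 0.01.

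*Etv4* was at 25.5, 25.1 and 26.6 cpm in DRG NCSCs and at 145, 150 and 144 in brain NSCs (-2.51 ± 0.04). *Spry1* was at 34.0, 31.0 and 28.1 cpm against 126, 120 and 131 (-2.01 ± 0.06), *Spry4* at 52.2, 51.6 and 44.8 against 158, 159 and 154 (-1.66 ± 0.05) and *Etv5* at 134, 133 and 119 against 314, 311 and 304 (-1.27 ± 0.04). No groups overlapped. *Spry2* was just outside the limit (-0.97 ± 0.04) and passed it with upper-quartile scaling (-1.01). *Dusp5* was higher (0.79 ± 0.13), the opposite direction, and *Spred1* overlapped (0.08 ± 0.04, adjusted p = 0.0809 by edgeR). *Dusp4* was higher by 3.25 ± 0.07. Without DRG NCSC replicate 3 the count called was again 4, with *Spry1* at -1.95 and *Etv5* at -1.22, the median was -0.98, and *Spred1* (0.13) also passed the adjusted p without the limit of 2-fold.

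Most of the feedback genes were also higher in pNSCs than in NCSCs. In Wnt1Cre-mTmG Tail pNSCs 5 of the 9 genes were called higher than in DRG NCSCs (*Spry1*, *Spry2*, *Spry4*, *Etv4* and *Etv5*) and 1 lower (*Dusp5*), against 15.3% and 22.6% of all genes. In DRG pNSCs 5 were called higher (*Dusp6*, *Spry1*, *Spry4*, *Etv4* and *Etv5*) and 1 lower (*Dusp5*), against 15.1% and 23.3%. Without the limit of 2-fold all 9 passed in each, against 83.6% and 82.4% of all genes. Both comparisons share the DRG NCSC samples, and without DRG NCSC replicate 3 the counts called were again 6 and 6. *Etv4* was higher by 2.57 ± 0.04 in Tail pNSCs and by 2.36 ± 0.04 in DRG pNSCs, and *Spry1* by 2.50 ± 0.05 and 2.26 ± 0.06. Without that replicate *Etv4* was higher by 2.38 in DRG pNSCs and *Spry1* by 2.44 in Tail pNSCs. *Spry2*, with 1.03 ± 0.03 in Tail pNSCs, was just inside the limit and fell outside it with DESeq2 (0.98) or without the filter on low counts (0.999). *Dusp5*, at 16.5, 17.2 and 19.4 cpm in DRG NCSCs, was lower by -2.94 ± 0.15 and -1.38 ± 0.15 on the log2 scale. The *Dusp4* log2 fold changes were -1.16 and -0.18 (-1.20 and -0.22 without replicate 3), so that it was the one gene besides *Dusp5* that was higher in the NCSCs than in both kinds of pNSCs.

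By their median, the 9 genes differed the most from cells of the tissue of origin. In Tail-pNSC against Tail cells 7 of the 9 genes were called higher and 1 lower, against 14.1% and 32.6% of all genes, and in Lung-pNSC against Lung cells 7 were higher and 1 lower, against 20.2% and 34.9%. In Sox2-GFP lung pNSCs against the same Lung cells 6 were higher and 1 lower, against 21.3% and 34.9%. The gene called lower was *Dusp5* each time. Without the limit of 2-fold all 9 passed in each, against 82.9%, 86.0% and 90.8% of all genes. The median log2 fold change of the 9 genes was 1.75, 1.87 and 1.28, against -0.16, -0.15 and -0.12 over all genes.

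In each of the 3 comparisons the 2 largest fold changes of the 9 genes were those of *Etv1* and of 1 other ETS gene, *Etv5* in tail and *Etv4* in lung. *Etv4* was at 0.955 and 0.915 cpm (18 and 15 counts) in Lung cells, against 240 and 240 cpm in Lung-pNSC and 194 to 197 cpm in Sox2-GFP lung pNSCs, log2 fold changes of 7.92 ± 0.09 and 7.65 ± 0.08. In Tail cells, by contrast, it was at 62.4 and 62.3 cpm, and Tail-pNSC were higher by 0.81 ± 0.05, which was not a call. *Etv5* was at 26.8 and 24.6 cpm in Tail and 511 and 537 in Tail-pNSC (4.24 ± 0.05), and at 144 and 143 cpm in Lung (1.87 ± 0.04 in Lung-pNSC, 1.26 ± 0.03 in Sox2-GFP lung pNSCs). *Etv1* was at 14.3 and 13.2 cpm in Tail and 10.9 and 13.7 cpm in Lung, and was higher by 3.94 ± 0.06, 3.89 ± 0.06 and 3.18 ± 0.05.

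Among the Sprouty genes, *Spry4* and *Spry2* were called higher in all 3 comparisons and *Spry1* in that with Tail cells. *Spry4* was at 40.4 and 35.6 cpm in Tail and 51.0 and 48.5 in Lung, with log2 fold changes of 2.63 ± 0.05 in Tail-pNSC, 2.52 ± 0.04 in Lung-pNSC and 1.56 ± 0.04 in Sox2-GFP lung pNSCs. The log2 fold changes of *Spry2* were 1.75, 2.52 and 2.33. *Spry1* was higher than Tail cells in Tail-pNSC (1.27 ± 0.04), but Lung cells held 164 and 161 cpm of it. Lung-pNSC were above them by 0.50 ± 0.04 and Sox2-GFP lung pNSCs below them by -0.75 ± 0.03. *Spred1* was higher by 1.28 to 1.35 in the 3 comparisons. *Dusp6* was called higher in Tail-pNSC (2.27 ± 0.04) and Lung-pNSC (1.65 ± 0.04), and had a log2 fold change of 0.65 ± 0.03 in Sox2-GFP lung pNSCs.

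*Dusp5* was at 18.8 and 22.2 cpm in Tail and 32.0 and 32.0 in Lung cells. Its log2 fold changes were -1.69 ± 0.12 in Tail-pNSC, -1.53 ± 0.10 in Lung-pNSC and -2.16 ± 0.08 in Sox2-GFP lung pNSCs. Leaving the experiments aside, all 13 pNSC samples were below all 7 samples of Tail cells, Lung cells and DRG NCSCs for *Dusp5*, as for 15.0% of the genes that passed the filter. They were above all 7 for *Dusp6*, *Spry2*, *Spry4*, *Etv1*, *Etv4* and *Etv5*, as for 12.8% of those genes. *Spry1*, *Spred1* and *Dusp4* overlapped. Without DRG NCSC replicate 3 each of the 10 genes was on the same side or overlapped as before. Endothelial markers summed to 874 to 895 cpm in Tail and 3770 to 3849 cpm in Lung, and fibroblast markers to 72045 to 73498 and 3610 to 3702 cpm, while the endothelial sum was at most 4.94 cpm in the pNSC groups. The part of these cell types in the fold changes was not tested.

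**Figure D3:**
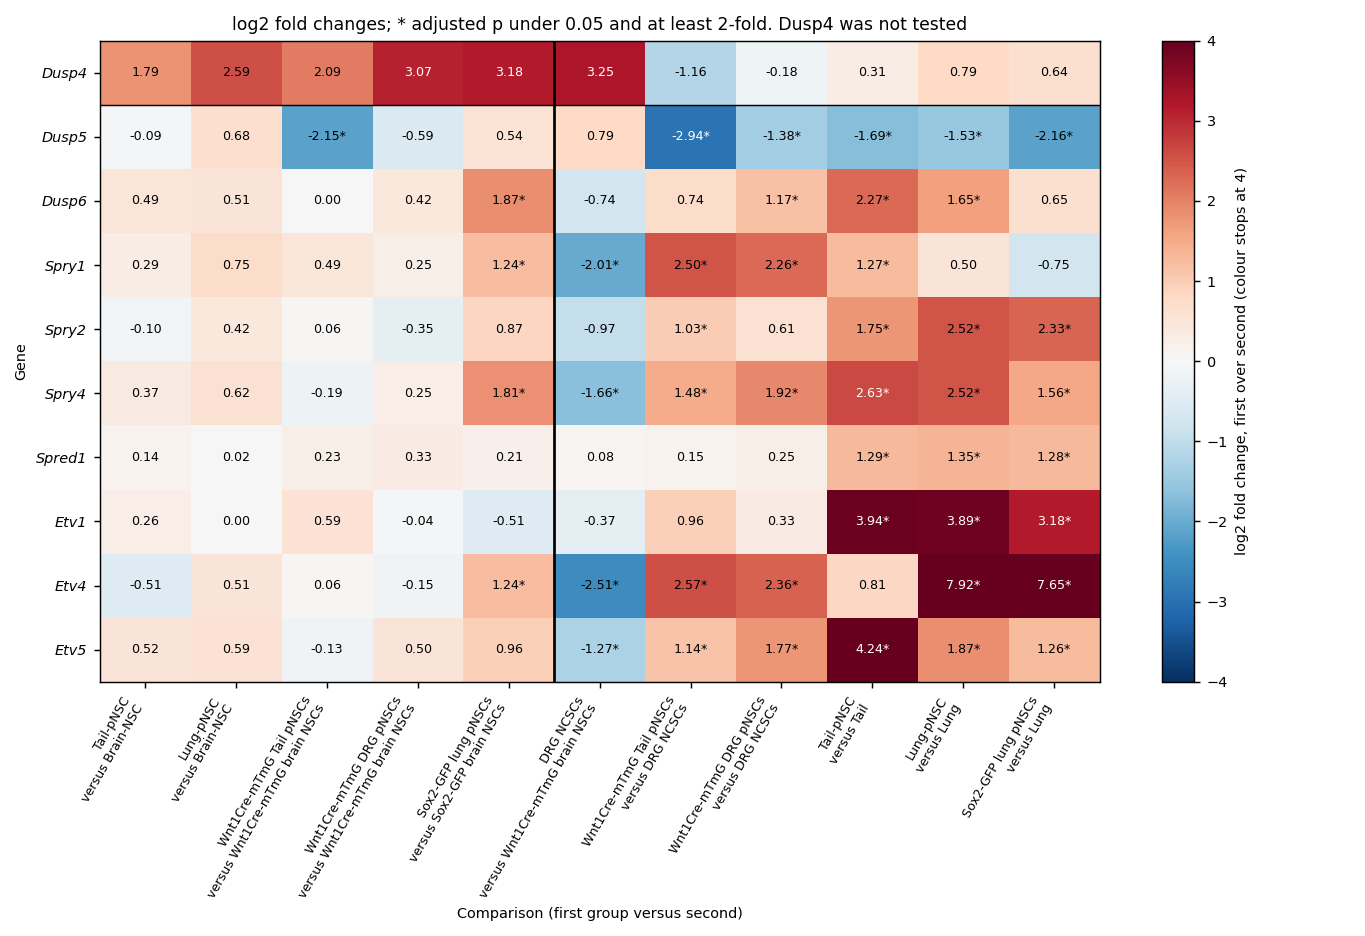
Log2 fold change of each gene (rows) in the 11 comparisons (columns, first group over second), with red for higher and blue for lower in the first group. An asterisk marks an adjusted p under 0.05 with a change of at least 2-fold. The 5 comparisons of pNSCs with brain NSCs are left of the vertical line, and *Dusp4*, above the horizontal line, was not tested. Left of the line, calls stand for *Dusp5* in the Wnt1Cre-mTmG Tail pNSCs and for 4 genes in the Sox2-GFP lung pNSCs.

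Some of the 10 genes shared their order over the groups. Over the 11 group means of log2(cpm + 0.5), *Dusp6* and *Spry4* had a Pearson r of 0.95, and *Spred1* and *Etv1*, and *Spry2* and *Etv1*, of 0.93 and 0.91. *Dusp5* had a negative r with 8 of the others, down to -0.77 with *Etv1*. Among the 8 NSC and pNSC groups alone, *Dusp6*, *Spry1*, *Spry4* and *Etv5* had an r of 0.84 to 0.99 with each other, and *Spry2* and *Etv4* one of 0.94. There *Etv1* had an r of at most 0.21 with any of the others, and *Dusp5* one of -0.03 with *Dusp4*. Without DRG NCSC replicate 3 no r over the 11 groups moved by more than 0.0159. These are descriptions over groups that share libraries, scaling and, in part, low values in the Sox2-GFP brain NSCs.

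**Figure D4:**
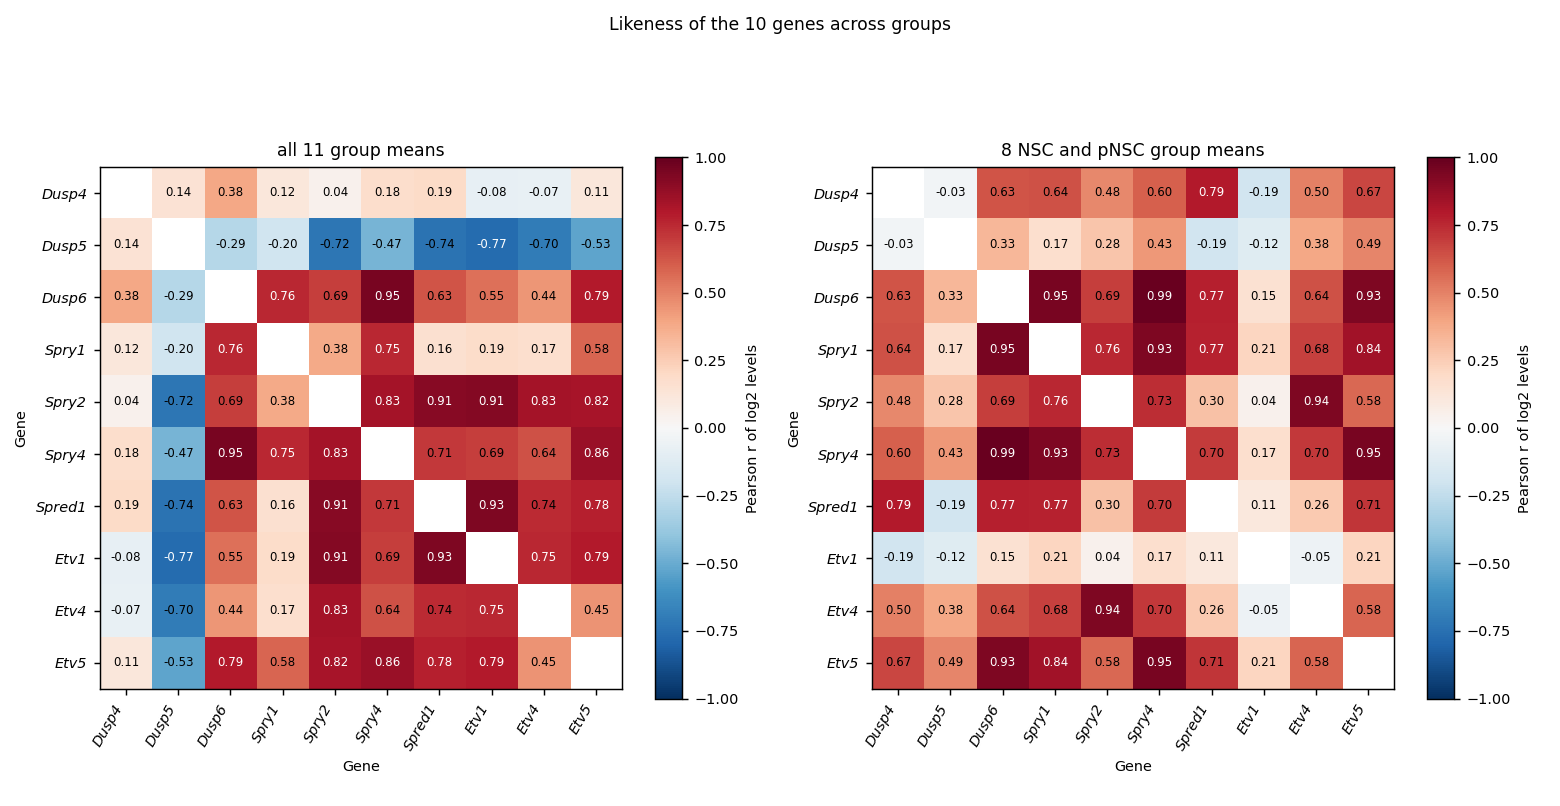
Pearson r between each pair of the 10 genes (rows and columns) over group means of log2(cpm + 0.5), for all 11 groups on the left and for the 8 NSC and pNSC groups on the right, with red for positive and blue for negative values. On the right, *Dusp6*, *Spry1*, *Spry4* and *Etv5* share high values of 0.84 to 0.99, while the row of *Etv1* is pale.

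The rest of the pathway was described by 4 lists of genes. The shares of all genes called higher and lower, beside which the calls of the lists stand, were 4.31% and 6.59% in Tail-pNSC, 4.56% and 4.15% in Lung-pNSC, 9.16% and 9.05% in Wnt1Cre-mTmG Tail pNSCs, 3.12% and 6.41% in DRG pNSCs and 5.76% and 9.99% in Sox2-GFP lung pNSCs. The 15 other DUSP, Sprouty, Spred and ETS relatives, of which 14 could be tested, held few calls when pNSCs were set against the brain NSCs. In Tail-pNSC 1 was higher and 1 lower, in Lung-pNSC 1 was higher and 1 (*Dusp2*) lower, in Wnt1Cre-mTmG Tail pNSCs 1 (*Dusp14*) was higher and 1 (*Dusp10*) lower, and in DRG pNSCs there were 0. *Dusp2* was at 0.424 cpm in Lung-pNSC and 0.904 in Brain-NSC, and the samples overlapped. In Sox2-GFP lung pNSCs 4 were called higher (*Dusp1*, *Dusp7*, *Spred3* and *Erf*) and 0 lower. *Dusp2*, *Dusp7*, *Dusp10*, *Dusp14*, *Spred3* and *Erf* are named here after their values were seen. *Spry3*, another Sprouty gene, was called in 2 of the 5 comparisons, higher in Tail-pNSC (1.71 against 0.712 cpm) and in Lung-pNSC (3.13 against 0.712 cpm). *Dusp8*, a phosphatase of JNK and p38, was called lower in Tail-pNSC (3.87 against 8.40 cpm), and *Dusp1*, an immediate early phosphatase, higher in Sox2-GFP lung pNSCs (10.6 against 4.19 cpm).

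Of the 20 receptors and adaptors, 0 were called higher and 1 lower in Tail-pNSC, 0 and 1 in Lung-pNSC, 4 and 0 in Wnt1Cre-mTmG Tail pNSCs, 0 and 2 in DRG pNSCs and 0 and 5 in Sox2-GFP lung pNSCs. The 5 were *Erbb3*, *Erbb4*, *Fgfr3*, *Pdgfra* and *Met*. *Met* was the other gene called higher in Wnt1Cre-mTmG Tail pNSCs and *Fgfr2* the other called lower in DRG pNSCs, and both, with *Erbb3* and *Pdgfra*, are named after their values were seen. *Fgfr3*, a receptor of FGFs, was lower in Lung-pNSC (138 against 282 cpm) and in Sox2-GFP lung pNSCs (115 against 395 cpm) and higher in Wnt1Cre-mTmG Tail pNSCs (395 against 190 cpm). *Erbb4*, a neuregulin receptor, was lower in Tail-pNSC (34.0 against 99.4 cpm) and in Sox2-GFP lung pNSCs (66.0 against 180 cpm) and higher in Wnt1Cre-mTmG Tail pNSCs (91.7 against 37.8 cpm). *Pdgfrb*, a PDGF receptor of mural cells and fibroblasts, was at 8.92 cpm in Wnt1Cre-mTmG Tail pNSCs against 0.543 in their brain NSCs, and was called lower in DRG pNSCs (0.0327 cpm). In the Sox2-GFP experiment the called receptors were lower and the called feedback genes higher in the lung pNSCs.

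Of the 17 genes of the cascade from RAS to ERK, at most 1 was called in either direction in each of the 5 comparisons. Without the limit of 2-fold 11 of 16 tested passed in Tail-pNSC, 8 of 16 in Lung-pNSC, and 13, 7 and 10 of 17 in Wnt1Cre-mTmG Tail pNSCs, DRG pNSCs and Sox2-GFP lung pNSCs. Of all genes tested, 49.1%, 40.3%, 65.5%, 45.9% and 65.5% passed in that order. The calls were of *Rps6ka1* and *Ksr2*. *Rps6ka1*, an ERK-activated kinase, was higher in Lung-pNSC (25.2 against 11.7 cpm) and Sox2-GFP lung pNSCs (29.4 against 9.03 cpm) and lower in Wnt1Cre-mTmG Tail pNSCs (4.20 against 16.1 cpm). *Ksr2*, a scaffold of the cascade, was at most 1.41 cpm in every group of these comparisons.

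The 20 other ERK response genes and inhibitors held 2 calls higher (*Phlda1* and *Il17rd*) and 0 lower in Tail-pNSC, 1 (*Epha4*) and 3 in Lung-pNSC, 2 (*Il17rd* and *Ier2*) and 7 in Wnt1Cre-mTmG Tail pNSCs, 1 (*Spsb1*) and 4 (*Fos* among them) in DRG pNSCs, and 8 and 1 of 19 tested in Sox2-GFP lung pNSCs. These genes, and those of the 8 that follow, are named after their values were seen. Among the 8 were the immediate early genes *Egr1*, *Egr2* and *Egr3* (log2 fold changes of 2.19, 2.36 and 2.54) and the cyclin gene *Ccnd1* (2.69). *Ccnd1* and *Egr3* were called lower in Wnt1Cre-mTmG Tail pNSCs (-2.16 and -1.63). *Lif*, a cytokine gene, was lower in Lung-pNSC, Wnt1Cre-mTmG Tail pNSCs and DRG pNSCs and higher in Sox2-GFP lung pNSCs, with levels of 0.250 to 2.28 cpm. *Shc4*, an adaptor, was lower in Lung-pNSC (38.3 against 102 cpm), Wnt1Cre-mTmG Tail pNSCs (30.0 against 71.6 cpm) and DRG pNSCs (log2 fold change of -1.35), and *Ier3* was lower in Lung-pNSC, DRG pNSCs and Sox2-GFP lung pNSCs.

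Against tissue cells and NCSCs the medians of this last list and of the feedback genes had opposite signs. In Tail-pNSC against Tail cells, 3 of the 20 were called higher and 15 lower, with a median log2 fold change of -3.23, where 14.1% and 32.6% of all genes were called. In Lung-pNSC against Lung cells the numbers were 4 and 13 (median -1.82), and in Sox2-GFP lung pNSCs against Lung cells 3 and 12 of 19 tested (-2.20), against 20.2% and 34.9%, and 21.3% and 34.9%, of all genes. Against DRG NCSCs they were 3 and 12 in Wnt1Cre-mTmG Tail pNSCs (-1.49) and 3 and 8 in DRG pNSCs (-0.77), against 15.3% and 22.6%, and 15.1% and 23.3%, of all genes. Without DRG NCSC replicate 3 they were 3 and 13 (-1.54) and 3 and 9 (-0.85). The medians of the 9 feedback genes were positive in the same 5 comparisons (1.03 to 1.87), where *Dusp5* was the one member called lower. Their DUSP, Sprouty, Spred and ETS relatives had negative medians there, as the last list did. These were -0.31 against Tail, -0.69 and -0.47 against Lung, and -0.21 and -0.28 against DRG NCSCs (-0.20 and -0.18 without replicate 3). Of 14 tested, 1 was called higher and 6 lower in Tail-pNSC, 4 and 6 in Lung-pNSC and 3 and 6 in Sox2-GFP lung pNSCs. Against DRG NCSCs 0 were higher and 3 lower in each. *Fos* and *Egr1*, picked after their values were seen, were at 4384 and 2804 cpm in Tail cells, against 9.11 and 262 in Tail-pNSC. In Lung cells they were at 623 and 543 cpm, against 6.84 and 256 in Lung-pNSC. The methods describe tissue that was minced and treated with trypsin, and the part of such handling in these levels was not tested.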

How the data were processed

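RNA-seq libraries of polyadenylated RNA were sequenced as single reads. The authors deposited raw read counts per gene for all samples in 1 table, made with HISAT2 on GRCm38, Cufflinks and htseq-count. The annotation release and the strand setting are not given in the sources used here. The authors' later quantile normalization and log2 transform were not part of the deposited counts.

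The filter on low counts was that of filterByExpr, with a minimum count of 10 and a minimum total of 15. Counts were scaled by TMM, and each experiment was fitted on its own with edgeR 4.0.16 in R 4.3.3 (16948, 14448 and 16234 genes). Differences between experiments came from 1 fit over 28 samples (17393 genes). P-values are two-sided, from the quasi-likelihood test, adjusted by Benjamini-Hochberg over all genes of a fit, and a call needs an adjusted p below 0.05 and at least 2-fold. Errors of log2 fold changes are standard errors (the fold change over the root of F). Levels are cpm scaled over all samples. The fit was tested on simulated counts with known changes. Marker sums are cpm summed over a list, and 2 neural crest and Schwann cell markers are not reported here.

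The 10 genes and the lists were chosen with earlier results of these data known. Named were all 10 genes, up to 3 genes per list called in most of the 5 comparisons of pNSCs with brain NSCs with samples apart (ties by the larger change), and the 5 genes most like *Dusp4*. The variance between replicates was 1.09 to 2.82 times that of counting error, except for pairs with DRG NCSC replicate 3 (16.8 and 21.0 times). No sample was therefore counted once for 2. *Dusp4*, *Spry4* and *Etv4* had no promoter sequence in the RefSeq table used here. Alternatives were DESeq2 1.42.0, limma 3.58.1 on quantile-normalized log2(counts + 1), upper-quartile scaling, no filter, no limit on the fold change, a replicate block and leaving out each replicate. P-values this small rest on the close replicates and on spread shared over genes.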

Additional observations from a re-analysis of the deposited data

Results flagged for a closer look

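The following 3 values were singled out because the effect of pNSCs over brain NSCs differed between experiments by an interaction test (edgeR's quasi-likelihood test, adjusted over all genes). For *Dusp5* the tail effect was 2.06 higher on the log2 scale in the Nes-GFP than in the Wnt1Cre-mTmG experiment (-0.10 against -2.15). For *Dusp6* the lung effect differed by -1.35 between the Nes-GFP and the Sox2-GFP experiment (0.54 against 1.84), and for *Spry4* by -1.18 (0.65 against 1.79). Mouse line, age, line of cells and experiment cannot be told apart in any of the 3. The test for a sample far from the others was not run, because no group held 4 or more samples.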

How the results depend on the processing

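Counts of called genes did not change beyond 1.5 times with DESeq2, upper-quartile scaling, quantile normalization with limma, no filter on low counts, a replicate block or any left-out replicate. They moved without the limit of 2-fold, to 8 (Tail-pNSC), 7 (Lung-pNSC), 6 (Wnt1Cre-mTmG Tail pNSCs), 8 (DRG pNSCs), 8 (DRG NCSCs) and 9 (Sox2-GFP lung pNSCs) against brain NSCs, and to 8 and 8 for the differences of the tail and lung effects. Of the single values 1208 kept their sign and call, or for *Dusp4*, which had no call, stayed within the spread of replicates. Another 9, all of *Dusp4*, moved beyond that spread with the same sign. A further 8 reversed, 2 became calls and 3 ceased to be calls. With limma, *Dusp5* reversed in Tail-pNSC against Brain-NSC (0.0156) and *Etv1* in Lung-pNSC against Brain-NSC (-0.0046). Without 1 replicate the log2 fold change of *Dusp5* in Tail-pNSC against Brain-NSC ranged from -0.37 to 0.12, that of *Spred1* in Lung-pNSC against Brain-NSC from -0.0366 to 0.0837, that of *Etv1* there from -0.0400 to 0.0484 and that of *Dusp6* in Wnt1Cre-mTmG Tail pNSCs against brain NSCs from -0.0186 to 0.00828. The sign turned without Tail-pNSC replicate 1 (*Dusp5*), Brain-NSC replicate 2 (*Spred1*, *Etv1*), Lung-pNSC replicate 1 (*Etv1*) and replicate 1 of either group (*Dusp6*), and none of these was a call. *Dusp5* in Tail-pNSC against Tail fell to -0.92 with limma and was then no call. Against tissue cells the scaling moved the median of all genes, from -0.16 to 0.37 (Tail), -0.15 to 0.39 (Lung) and -0.12 to 0.33 (Sox2-GFP, Lung) with quantile normalization, and no called feedback gene changed direction.

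Samples with the same replicate number did not deviate together (correlations between -0.0293 and 0.0280), and samples were treated as unpaired. Most replicates differed by little beyond counting error, so this check could miss a pairing. With the replicate block the counts called were unchanged, for example 0 in Tail-pNSC against Brain-NSC. Leaving out DRG NCSC replicate 3 for the gene lists, the separation of samples and the correlations was chosen after seeing the data. The low counts limit *Dusp5* in Wnt1Cre-mTmG Tail pNSCs (39 to 60 counts) and *Etv4* in Lung cells (15 and 18). Among the listed genes they also limit the calls of *Dusp2* in Lung-pNSC and of *Pdgfrb* in DRG pNSCs.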
